A study of Mus musculus with 16 samples.

Results

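The 40 genes described here encode scaffold proteins of the postsynaptic density, proteins of the synaptic cleft and adhesion molecules that join the presynaptic and postsynaptic membranes. They form a list of gene names out of the 53679 gene symbols in the data. The list uses no measured value as a rule, but it was drawn up with earlier results of these data known. All 40 were in the table, as 299 isoforms, and all 40 passed the filter on low values in each comparison. Primary cortical neuron cultures were prepared from wt mouse embryos at E15. They received vehicle or 10 μM tianeptine (TIA, an antidepressant) on day 8 in vitro (DIV 8). On DIV 9, 24 h later, they went through 3-h oxygen-glucose deprivation (OGD, a cell culture model of ischemia) or a sham procedure. RNA was taken at 6 h of reoxygenation from 4 cultures of each group. The sham groups are CONTROL-VEH (vehicle) and CONTROL-TIA, and the deprived groups are OGD-VEH (vehicle) and OGD-TIA. The sample labels call the vehicle cultures untreated. Cultures are named here by their group and by their number, which runs from 1 to 16 across the groups.

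At excitatory synapses, glutamate receptors are held in place by layers of scaffold proteins. MAGUK proteins such as PSD-95 bind the receptors, SAPAP proteins (encoded by the Dlgap genes) link the MAGUKs to SHANK proteins, and HOMER proteins connect SHANK to metabotropic receptors and the actin cytoskeleton. Neurexins on the axon bind neuroligins and LRRTM proteins on the dendrite across the cleft, and secreted pentraxins gather AMPA receptors. Exchange factors and activating proteins for small GTPases, anchored in the same density, shape the spine and the traffic of receptors into it.

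Levels were deposited for single isoforms as FPKM, the fragments per kilobase and 1 M mapped reads. The level of a gene is here the sum over its isoforms unless stated otherwise. Between 18.5 and 23.1 M reads per culture were estimated from the FPKM that 1 read gives, so that 1 read on a transcript of 1 kilobase corresponded to 0.0433 to 0.0540 FPKM. As a check of the labelled cell type, the summed FPKM of 16 pan-neuronal markers was 6841 to 7448 in CONTROL-VEH and 6884 to 7026 in CONTROL-TIA. All 6 excitatory and all 6 inhibitory markers were detected, 8 of 10 microglial and 7 of 8 endothelial or mural markers had means under 0.5 FPKM, and the 10 astrocyte markers summed to 705 to 1689.5 FPKM in the control cultures. The 10 oligodendrocyte lineage markers summed to 170 to 223 FPKM in the control cultures, and 2 of them (Mog and Mag) had means under 0.5 FPKM. Among the OGD cultures, OGD-VEH 9 kept a neuronal marker sum of 6106 FPKM while OGD-VEH 10, 11 and 12 had 4658, 4628 and 2857 FPKM. OGD-TIA 13, 14 and 15 lay between 6442 and 6582 FPKM and OGD-TIA 16 at 3948 FPKM. OGD-VEH 9 (highest), OGD-VEH 12 (lowest) and OGD-TIA 16 (lowest) thus lay apart from the other cultures of their groups, and counts are also given without them.

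**Figure D1:**
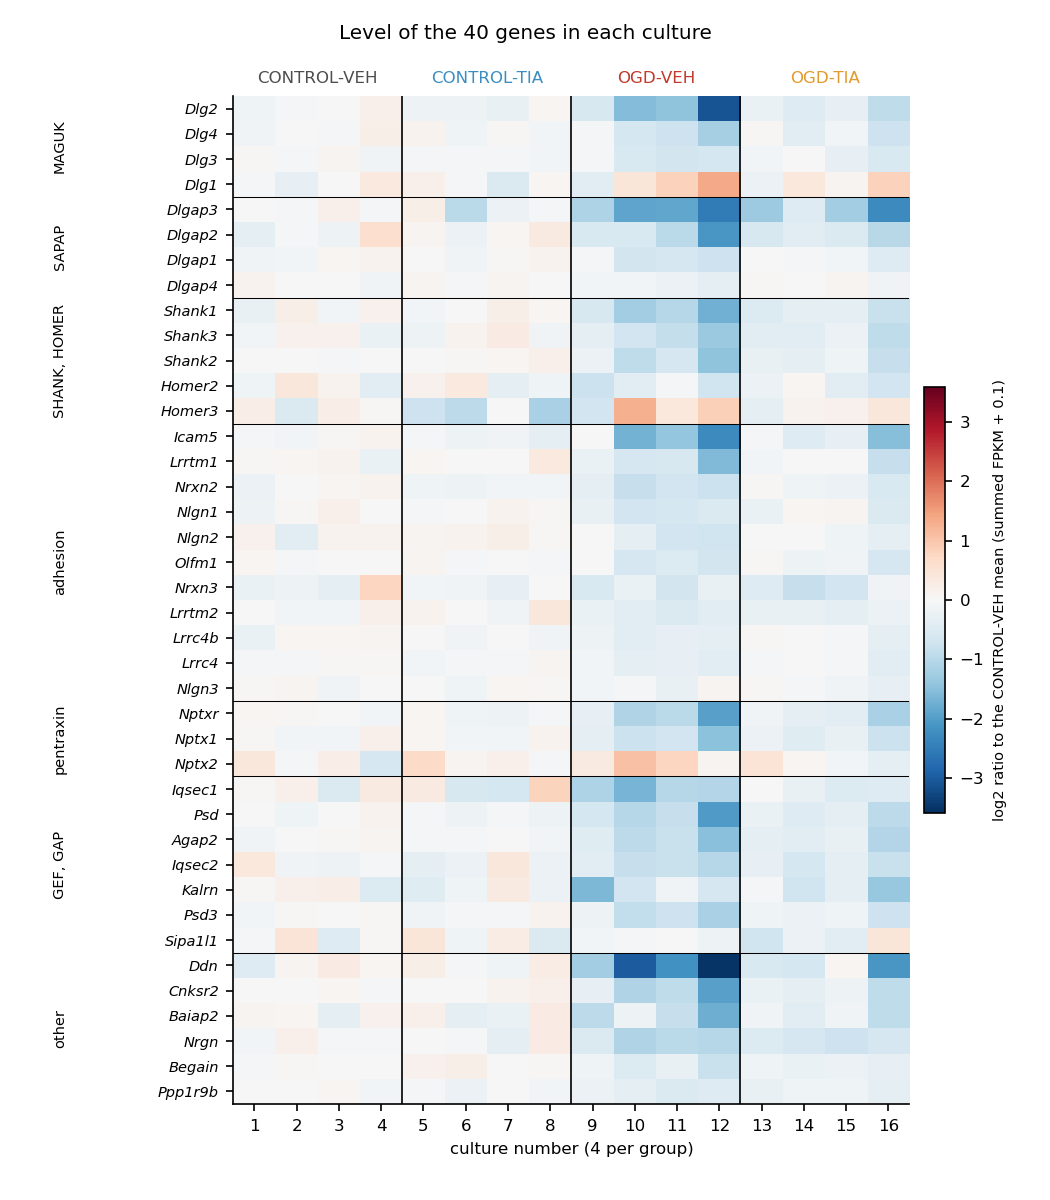
Log2 ratio of each of the 40 genes (rows, by role) to its mean in CONTROL-VEH, on summed FPKM + 0.1, in each of the 16 cultures (columns). Most rows are blue in OGD-VEH 10, 11 and 12 and in OGD-TIA 16, paler in OGD-VEH 9 and in OGD-TIA 13 to 15, while Dlg1, Homer3 and Nptx2 have red cells among the OGD-VEH cultures.

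How the isoforms are added matters for these genes, because the annotation lists short transcript fragments beside the full-length messages. Of the 299 isoforms, 103 were shorter than 1000 bases, and in 14 of the 40 genes such isoforms held over 50% of the summed FPKM over all cultures (median over the genes 30.7%, highest 85.3% in Dlgap4). A short isoform raises the sum by far more per read than a long one. Counts over the 40 genes are therefore also given with isoforms weighted by their length, which is close to counting reads, and in the main comparisons for the protein-coding isoform of at least 1000 bases that held most of these reads (the long coding isoform). For Iqsec1 (chr6:90656088-90988685, GRCm38), which encodes an exchange factor for ARF GTPases, the isoform with the highest mean was Iqsec1-205. It is a processed transcript of 354 bases whose FPKM was 28.6, 47.9, 0 and 48.6 in CONTROL-VEH and 0, 0.001, 0.003 and 0 in OGD-VEH. Of its 305 windows of 50 bases, the read length, 102 occur in no other isoform of the gene, and the others are shared. Dlgap3-204 (438 bases, 149 of 389 windows its own) was listed at 59.9, 51.1, 68.8 and 51.2 FPKM in CONTROL-VEH and at 10.5, 0.002, 0.512 and 0 FPKM in OGD-VEH. Dlg2-213, a retained intron of 448 bases, had 22 of 399 windows of its own and the highest mean of the Dlg2 isoforms, 87.3 FPKM. Their first bases are shown here because each fragment had the highest mean FPKM among the isoforms of its gene. Iqsec1 and Dlgap3 are DEGs described below. The DEGs Ddn and Psd, also described below, likewise had the highest mean in a short isoform (Ddn-202 and Psd-207). Capitals mark bases that no 50-base window shared with another isoform covers, and lower case the start of the shared part (5′ to 3′, GENCODE M21). The positions given are those of the capital bases, which in all 3 lie outside the exons of the long coding isoform.
Iqsec1-205 (chr6:90757449-90757550, minus strand): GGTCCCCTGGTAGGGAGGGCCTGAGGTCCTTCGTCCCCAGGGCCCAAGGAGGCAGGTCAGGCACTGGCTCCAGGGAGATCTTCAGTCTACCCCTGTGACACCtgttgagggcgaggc
Dlgap3-204 (chr4:127203306-127203454, plus strand): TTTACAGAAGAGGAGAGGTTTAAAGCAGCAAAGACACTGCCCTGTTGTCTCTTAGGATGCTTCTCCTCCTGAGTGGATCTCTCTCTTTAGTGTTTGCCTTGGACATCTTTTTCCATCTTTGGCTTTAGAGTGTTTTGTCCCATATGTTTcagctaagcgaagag
Dlg2-213 (chr7:92427669-92427690, plus strand): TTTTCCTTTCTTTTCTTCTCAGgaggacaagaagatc

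The first comparison, OGD-VEH with CONTROL-VEH, asks what OGD did to these genes without the drug. Of the 40 genes, 37 had a log2 fold change below 0 and 3 above it (Dlg1, Homer3 and Nptx2), with a median of -0.70 against 0.10 over all 16346 genes tested. A gene was called a DEG where the adjusted p (padj) from limma was at most 0.05 and its level changed by 1 or more on the log2 scale. These numbered 5, all lower in OGD-VEH: Ddn, Dlgap3, Iqsec1, Shank1 and Psd. Among all genes tested, 1.68% were called in this direction. At a padj of at most 0.05 with no limit on the fold, 10 of the 40 were lower, against 3.45% of all genes, and none was higher. At an unadjusted p under 0.05, 32 were lower (background 14.9%) and none higher. In 23 genes all 4 OGD-VEH cultures lay below all 4 CONTROL-VEH cultures (background 9.95%), and in none above. With isoforms weighted by length, 37 were again below 0, the median was -0.64 and 28 had a padj of at most 0.05, all of them lower, against 9.63% of all genes. At an unadjusted p under 0.05, 34 were then lower and 2 (Dlg1 and Homer3) higher, against 17% and 26.4% of all genes. The 5 DEGs under this weighting were Cnksr2, Ddn, Dlg2, Dlgap2 and Icam5 (background 2.69%), so that Ddn was the DEG called both ways. The groups were then apart in 27 genes, all lower, with a background of 11.5%. For the long coding isoforms alone, 35 of 40 were below 0 with a median of -0.75, and 28 were lower and 2 (Dlgap4 and Homer3) higher at an unadjusted p under 0.05 (8.45% and 10.6% of all isoforms), but none had a padj of at most 0.05 among 53087 isoforms tested. The p-values measure the spread between these cultures, which the study calls biological replicates.

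The number of DEGs depended on single cultures. Without OGD-VEH 9 there were 11, all lower, while 6.12% of all genes were called lower. At an unadjusted p under 0.05, 32 of the 40 were lower without it and 2 higher, against 17.8% and 26.1% of all genes. Without OGD-VEH 12 only Dlgap3 remained, and 0.172% of all genes were called lower. Leaving out any 1 of CONTROL-VEH 1 to 4, OGD-VEH 10 or OGD-VEH 11 left none, with at most 0.0305% of all genes called lower. At an unadjusted p under 0.05, 27 to 30 of the 40 were then lower, against 11.8 to 13.8% of all genes. The direction was steadier, since 36 or 37 of the 40 genes were below 0 whichever culture was left out.

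Most neuronal markers were lower beside the scaffold genes, and their part in the result was not tested. The 16 pan-neuronal markers were all below 0 in OGD-VEH, with a median log2 fold change of -0.72, 1 of them a DEG. The 6 excitatory markers had a median of -0.90. The 6 inhibitory markers went both ways, 4 below and 2 above 0 with a median of -0.37 and none called, and their sum was 208 to 445 FPKM in CONTROL-VEH and 266 to 403 FPKM in OGD-VEH. Among glial markers, 9 of 10 astrocyte markers were above 0 (median 0.73, none a DEG), and 7 of 8 oligodendrocyte lineage markers tested were above 0 (median 1.16, 4 DEGs). Astrocyte markers summed to 1089 to 2734 FPKM in OGD-VEH and 813 to 1689.5 FPKM in CONTROL-VEH. By culture, the median log2 ratio of the 40 genes to CONTROL-VEH was -0.29, -0.64, -0.68 and -0.91 in OGD-VEH 9 to 12, and that of the pan-neuronal markers -0.24, -0.64, -0.56 and -1.67. Both were shallowest in OGD-VEH 9 and deepest in OGD-VEH 12, where the markers lay lower than the 40 genes. When every culture was scaled to its pan-neuronal markers, an alternative chosen after seeing the data, the median of all genes moved from 0.10 to 0.84 and that of the 40 genes from -0.70 to 0.05. The scaling adds nearly the same amount to each gene, 0.715 to 0.75 over the 40, so the distance of the 40 genes from all genes could not change, and a sign that turns under it shows only a log2 fold change milder than this shift. This holds for every sign given below as scaled or relative to these markers. Over all genes, 73 were then called lower and 4412 higher, against 275 and 393 without the scaling. Of the 40, 19 were below 0 and 21 above, and the DEGs were Ddn and Dlgap3 (lower) and Nptx2 (higher). In bulk cultures, fewer neurons and less RNA per neuron cannot be told apart.

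**Figure D2:**
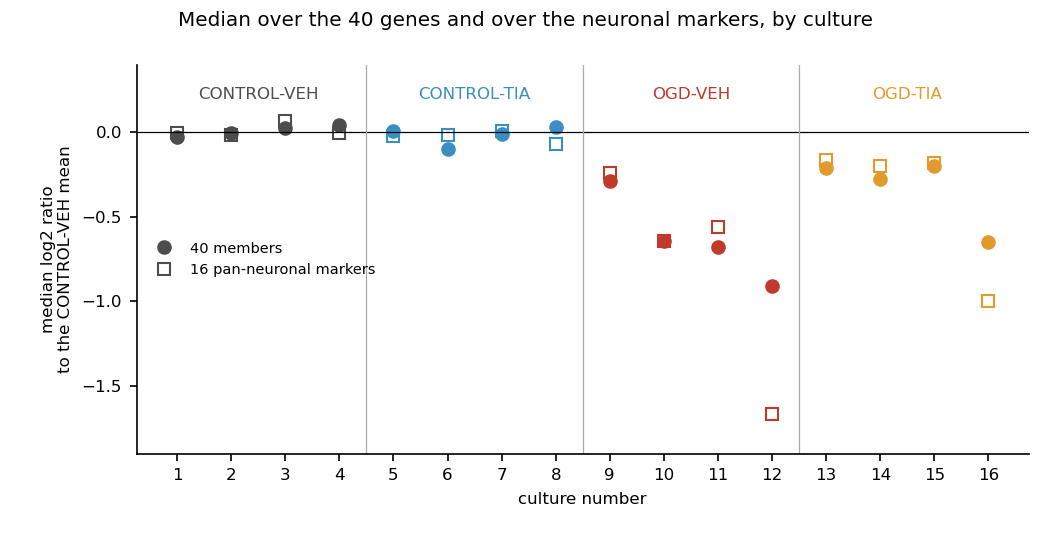
Median log2 ratio to the CONTROL-VEH mean, on summed FPKM + 0.1, over the 40 genes (filled circles) and over the 16 pan-neuronal markers (open squares) in each culture. Both lists lie near 0 in the 8 control cultures and below 0 in the 8 OGD cultures, with OGD-VEH 12 and OGD-TIA 16 lowest within their groups.

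Dendrin and the other density proteins outside the classical scaffold families held the gene with the largest change, and all 6 were below 0, or 4 of 6 when scaled to the pan-neuronal markers (Begain and Ppp1r9b were then above 0). Ddn (chr15:98803777-98809490) encodes dendrin, a protein of dendrites and spines whose message is carried into dendrites. It had 139, 206, 235 and 201 FPKM in CONTROL-VEH and 81.1, 24.04, 42.4 and 16.6 FPKM in OGD-VEH. All 4 OGD cultures were below all controls, with OGD-VEH 9 closest to them. The log2 fold change was -2.48 ± 0.45 (SE, n = 4 against 4, limma padj 0.0336). The fragment Ddn-202 of 368 bases held much of the sum, and was listed at 0 FPKM in OGD-VEH 10 and 12. The full-length Ddn-201 (3745 bases) went from 52.1, 53.8, 55.5 and 45.5 FPKM to 34.01, 24.04, 28.04 and 16.6 FPKM, again with no overlap (log2 fold change -1.05). Length weighting gave -1.34 (padj 0.0255). Nrgn encodes neurogranin, which binds calmodulin in spines, and fell by 0.90 on the log2 scale (padj 0.0281). It is described by culture because both ways of adding isoforms gave it nearly the same change, a choice made after its values were seen. Its FPKM was 409, 491, 425 and 423 in CONTROL-VEH and 302, 204, 223 and 213 in OGD-VEH. The groups did not overlap, and length weighting gave -0.89 (padj 0.0255). Ppp1r9b encodes spinophilin, which brings protein phosphatase 1 to spines, and had 161, 164, 170.3 and 151 FPKM in CONTROL-VEH against 139.9, 126, 114 and 118 FPKM in OGD-VEH. This was the smallest change among these 6 genes (-0.38 ± 0.10, padj 0.0474), yet the groups were apart. The log2 fold changes of Cnksr2 (a scaffold of Ras signaling), Baiap2 (IRSp53, an actin regulator) and Begain (a partner of PSD-95) were -1.06, -0.93 and -0.42, each with a padj above 0.05. With length weighting all 3 had a padj of at most 0.05, and Cnksr2 was a DEG at -1.03.

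The SAPAP family had 4 members below 0, or 2 when scaled to the pan-neuronal markers (Dlgap1 and Dlgap4 were then above 0), and 1 of them was a DEG. Dlgap3 (chr4:127169204-127237022) encodes SAPAP3 and had 97.1, 93.6, 112 and 93.7 FPKM in CONTROL-VEH and 45.98, 26.5, 26.97 and 17.1 FPKM in OGD-VEH. Every OGD-VEH culture lay at less than 50% of the lowest control. The log2 fold change was -1.85 ± 0.26 (padj 0.0281), the lowest padj of the 40 together with Nrgn. Most of it came with the fragment Dlgap3-204 shown above, and the long coding isoform Dlgap3-201 had 31.3, 32.3, 37.2 and 35.6 FPKM against 29.8, 22.5, 24.4 and 15.7 FPKM. These groups were also apart, with a log2 fold change of -0.59, and length weighting gave -0.88 (padj 0.0288), under the limit of 1 for a DEG. Dlgap2 was at -1.03 (padj 0.0958) and at -1.12 (padj 0.0328) with length weighting. Dlgap1 was at -0.51 (padj 0.0794). Dlgap4 had the smallest log2 fold change of the family, with 664, 609, 595 and 553 FPKM in CONTROL-VEH and 565, 566, 525 and 478 FPKM in OGD-VEH (-0.18 ± 0.09, padj 0.169). Its groups overlapped, and its long coding isoform Dlgap4-203 was higher in OGD-VEH (31.8, 40.6, 36.7 and 38.8 FPKM) than in CONTROL-VEH (31.6, 26.7, 25.5 and 24.1 FPKM), with a log2 fold change of 0.45 that did not pass adjustment. The direction for Dlgap4 thus differed between the sum and this isoform.

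All 3 SHANK genes, which encode the scaffold layer under the SAPAPs, had lower means in OGD-VEH, also when scaled to the pan-neuronal markers. Shank1 (chr7:44310253-44360572) had 53.3, 73.8, 59.1 and 71.1 FPKM in CONTROL-VEH and 42.5, 26.6, 31.3 and 19.00 FPKM in OGD-VEH. The groups did not overlap, and Shank1 was a DEG at -1.15 ± 0.24 (padj 0.0367). Its long coding isoform Shank1-203 of 9826 bases, which held most of its reads, had 34.7, 38.7, 33.9 and 39.4 FPKM against 29.9, 21.3, 22.00 and 13.6 FPKM. With length weighting the log2 fold change was -0.86 (padj 0.0326). Shank2 and Shank3 were at -0.79 and -0.81 (padj 0.065 and 0.0508), and at -0.87 and -0.71 with length weighting (padj 0.0328 and 0.0343). The HOMER genes had opposite signs, and neither passed the test. Homer2 was at -0.48 (padj 0.16), and above 0 when scaled to the pan-neuronal markers. Homer3 had 36.7, 21.5, 36.7 and 32.2 FPKM in CONTROL-VEH and 19.3, 75.7, 40.4 and 56.4 FPKM in OGD-VEH. OGD-VEH 9 was below every control and the other 3 OGD cultures above them, so the groups overlapped (0.46 ± 0.40, padj 0.432). The isoform Homer3-201 had 5.11, 5.23, 6.85 and 4.27 FPKM and 6.28, 10.9, 14.5 and 15.8 FPKM, and length weighting gave 0.78 (padj 0.0536). All 50-base windows of Homer3-201 are shared with other isoforms.

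Among the MAGUKs, Dlg2 to Dlg4 had lower means and Dlg1 a higher one, while relative to the pan-neuronal markers only Dlg2 was below 0. Dlg2 (chr7:90476672-92449247) encodes PSD-93 and had 181, 194, 205 and 228 FPKM in CONTROL-VEH and 135, 67.9, 74.1 and 23.5 FPKM in OGD-VEH. All OGD-VEH cultures were below the controls, but they ran from 23.5 to 135 FPKM, and the log2 fold change of -1.67 ± 0.45 had a padj of 0.0523. The long coding isoform Dlg2-204 was nearly constant over the controls (48.2, 48.6, 50.6 and 51.3 FPKM) and had 43.3, 20.1, 22.3 and 12.3 FPKM in OGD-VEH. With length weighting Dlg2 was a DEG at -1.26 (padj 0.0345). Dlg4 encodes PSD-95, the most studied protein of the density, and was added after its values were seen. It had 526, 572, 556 and 666 FPKM in CONTROL-VEH and 545, 374, 347 and 252 FPKM in OGD-VEH. OGD-VEH 9 lay among the controls and the other 3 cultures below them, and the change of -0.66 ± 0.21 had a padj of 0.0704. Dlg3 (SAP102) had 66.6, 63.4, 69.6 and 59.7 FPKM against 62.5, 44.6, 40.6 and 41.97 FPKM, with OGD-VEH 9 again within the control range (-0.47 ± 0.15, padj 0.0726). Dlg1 encodes SAP97, which is also found in epithelial cells. It had 36.8, 31.5, 38.2 and 48.7 FPKM in CONTROL-VEH and 29.6, 51.9, 68.2 and 97.8 FPKM in OGD-VEH. OGD-VEH 10, 11 and 12 were above every control and OGD-VEH 9 below every control (0.56 ± 0.33, padj 0.257).

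The 7 regulators of small GTPases held 2 DEGs, and all 7 were below 0, or 5 when scaled to the pan-neuronal markers (Psd3 and Sipa1l1 were then above 0). Iqsec1 had 69.4, 76.3, 46.9 and 84.9 FPKM in CONTROL-VEH and 31.4, 21.04, 33.5 and 32.6 FPKM in OGD-VEH, with no overlap (-1.21 ± 0.22, padj 0.0336). Much of the difference lay in the fragment Iqsec1-205 shown above, which was listed at 0 in CONTROL-VEH 3 and at 0 to 0.003 FPKM in all OGD-VEH cultures. Its long coding isoform Iqsec1-201 overlapped between the groups, with 10.2, 15.8, 11.9 and 12.6 FPKM against 12.1, 13.5, 9.43 and 11.9 FPKM (log2 fold change -0.10). Length weighting gave a smaller change of -0.45 (padj 0.0262). Psd (chr19:46312087-46327156), an exchange factor for ARF6, had 643, 574, 645 and 692 FPKM in CONTROL-VEH and 414, 314, 358 and 154 FPKM in OGD-VEH. OGD-VEH 12 was by far the lowest and the groups were apart (-1.13 ± 0.28, padj 0.0455). With length weighting the change was -0.86 (padj 0.0314). The fragment Psd-207 of 445 bases had 157 to 270 FPKM in CONTROL-VEH and 116, 109, 104 and 0 FPKM in OGD-VEH. For the long coding isoform Psd-210 the groups overlapped (log2 fold change -1.21 ± 1.94). It had 0.903, 21.9, 30.8 and 35.9 FPKM in CONTROL-VEH and 30.6, 9.04, 23.5 and 0.029 FPKM in OGD-VEH. All 50-base windows of Psd-210 are shared with other isoforms, so these values depend on how shared reads were divided. Agap2 (PIKE, an ARF GTPase-activating protein) and Iqsec2 fell by 0.92 and 0.76 on the log2 scale (padj 0.042 and 0.0437), and length weighting gave -0.94 and -0.73. Psd3 and Kalrn (kalirin, an exchange factor that acts on spine shape) were at -0.74 and -0.75 (padj 0.0518 and 0.12). Sipa1l1 encodes SPAR, a Rap GTPase-activating protein of spines, and had the log2 fold change nearest to 0. It had 47.05, 66.3, 35.2 and 50.3 FPKM in CONTROL-VEH and 45.4, 47.4, 48.6 and 42.8 FPKM in OGD-VEH (-0.08 ± 0.18, padj 0.788), the OGD cultures lying inside the control range. Length weighting narrowed the spread of Sipa1l1, to 49.8, 54.5, 51.8 and 52.1 FPKM against 40.9, 42.2, 45.6 and 41.8 FPKM, and the groups were then apart at -0.29 (padj 0.0312).

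**Figure D3:**
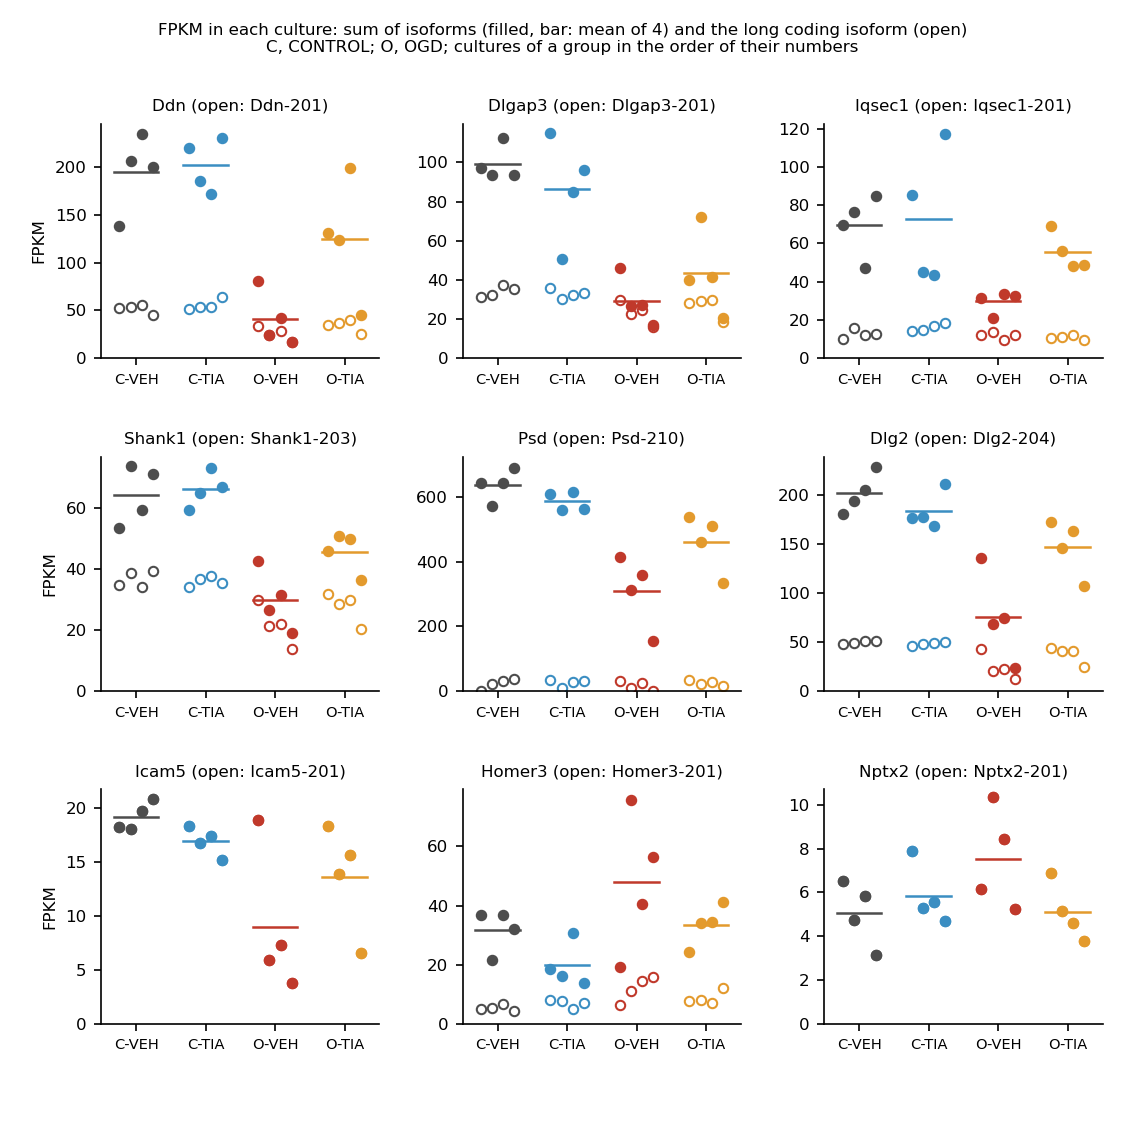
FPKM of 9 genes in each of the 16 cultures, as the sum over isoforms (filled circles, with the mean of 4 cultures as a line) and for the long coding isoform (open circles, which cover the filled ones in Icam5 and Nptx2, each with 1 isoform). The OGD-VEH sums of Ddn, Dlgap3, Iqsec1, Shank1, Psd and Dlg2 lie below all CONTROL-VEH sums, while the open circles of Iqsec1 and Psd overlap between these groups and those of the other 4 genes do not.

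The 11 adhesion genes were all below 0, with a median of -0.43 and no DEG. Relative to the pan-neuronal markers 9 of them were above 0, all except Icam5 and Lrrtm1. Those 9 had changes milder than the shift of 0.715 to 0.75 that the scaling adds. Icam5 (chr9:21032073-21039036) encodes telencephalin, a dendritic adhesion molecule of the forebrain, and has a single isoform. It had 18.2, 18.00, 19.6 and 20.8 FPKM in CONTROL-VEH and 18.8, 5.86, 7.25 and 3.79 FPKM in OGD-VEH. OGD-VEH 9 was at the control level and the other 3 cultures at less than 50% of the lowest control (-1.35 ± 0.42, padj 0.0667). The same values gave a padj of 0.0449 in the table weighted by length, in which the other genes differ and with them the shared estimate of the spread and the adjustment. Nrxn2 encodes neurexin 2 and was the adhesion gene that passed padj in the summed values, with 471, 539, 574 and 591 FPKM in CONTROL-VEH and 432, 303, 337 and 317 FPKM in OGD-VEH (-0.66 ± 0.13, padj 0.0347). The groups did not overlap, and length weighting gave -0.62 (padj 0.027). Short isoforms held 76.1% of the Nrxn2 sum. Its long coding isoform Nrxn2-202 had a smaller log2 fold change of -0.23 (limma padj 0.232 over single isoforms). All 50-base windows of Nrxn2-202 are shared with other isoforms. The neuroligins, which bind neurexins from the dendrite, ran from -0.53 for Nlgn1 through -0.44 for Nlgn2, the neuroligin of inhibitory synapses, to -0.09 for Nlgn3. Nlgn3 had 29.6, 31.05, 26.8 and 28.8 FPKM in CONTROL-VEH and 27.1, 27.6, 24.03 and 31.1 FPKM in OGD-VEH, and was the adhesion gene with the log2 fold change nearest to 0. The leucine-rich repeat adhesion genes were at -0.76 (Lrrtm1), -0.38 (Lrrtm2), -0.28 (Lrrc4, NGL-2) and -0.30 (Lrrc4b, NGL-3). Nrxn3 was at -0.42 and Olfm1, which encodes the secreted olfactomedin 1, at -0.43. Each of these 6 had a padj above 0.05, and with length weighting Lrrtm2 and Olfm1 had 0.04 and 0.0446.

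Of the 3 pentraxin genes, whose products gather AMPA receptors at synapses, 2 had lower means and 1 a higher one, also when scaled to the pan-neuronal markers. Nptxr, the membrane-bound pentraxin receptor, had 146, 142, 137 and 129 FPKM in CONTROL-VEH and 113, 65.8, 70.02 and 35.7 FPKM in OGD-VEH. The groups were apart, at -1.07 ± 0.30 on the log2 scale (padj 0.0548). Nptx1 was at -0.83 (padj 0.0562), and at -0.83 with a padj of 0.0351 in the weighted table. Nptx2 (chr5:144545902-144557478) encodes Narp, a secreted pentraxin induced by neuronal activity, and has a single isoform. It had 6.53, 4.75, 5.85 and 3.16 FPKM in CONTROL-VEH and 6.17, 10.4, 8.43 and 5.26 FPKM in OGD-VEH. OGD-VEH 10 and 11 were above every control and OGD-VEH 9 and 12 within their range (0.57 ± 0.28, padj 0.189). Relative to the pan-neuronal markers, Nptx2 was a DEG at 1.30 (padj 0.0364), and 4412 of the 16346 genes tested were then called higher. The scaling itself adds 0.715 to 0.75 to each of the 40 genes.

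**Figure D4:**
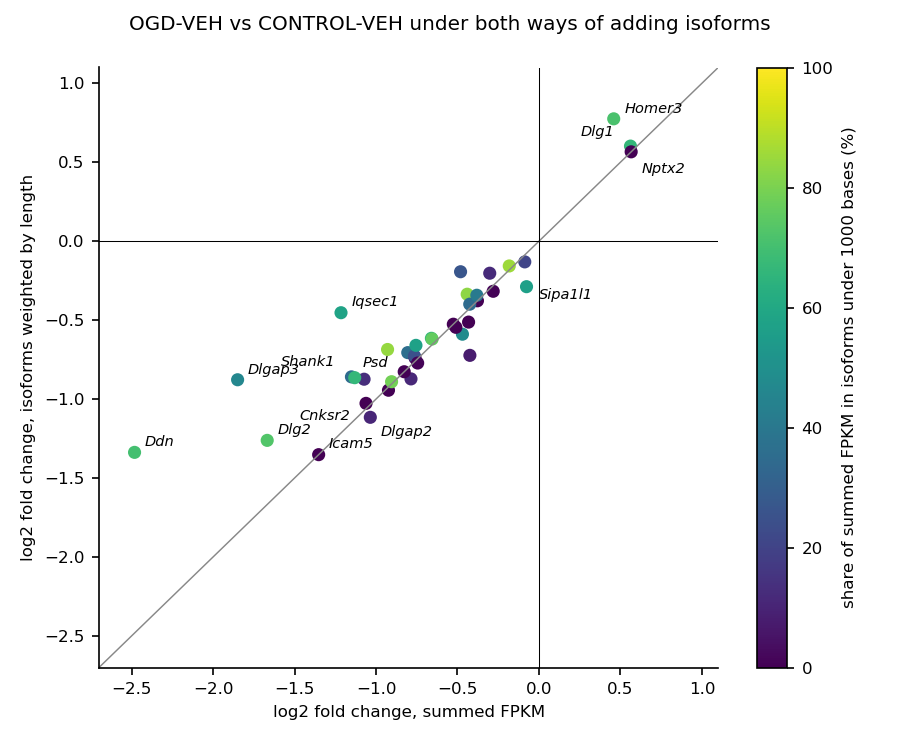
Log2 fold change in OGD-VEH vs CONTROL-VEH of the 40 genes on summed FPKM (horizontal) and with isoforms weighted by length (vertical), colored by the share of the summed FPKM in isoforms under 1000 bases. Most genes lie near the diagonal, Ddn, Dlgap3, Iqsec1 and Dlg2 lie above it at 46.2 to 72.7% in short isoforms, and the sign is the same both ways for all 40.

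The second comparison asks about the same OGD in cultures that had received TIA. Its cultures are separate from those of the first comparison. Here 38 of the 40 genes were below 0 (all but Dlg1 and Homer3), with a median log2 fold change of -0.33 against 0.04 over all 16242 genes tested. limma called none of the 40, and 0% of all genes, while 3174 of all genes had an unadjusted p under 0.05. The study, with DESeq2 and the same limits, reported DEGs in this comparison. A count of 0 here thus does not show that OGD left genes unchanged under TIA. At an unadjusted p under 0.05, 14 genes were lower (background 7.92%) and 1, Homer3, was higher (background 11.6%). In 13 genes all OGD-TIA cultures lay below all CONTROL-TIA cultures, against 6.72% of all genes. With isoforms weighted by length, 37 were below 0 with a median of -0.29, and 22 were lower at that p (background 9.67%) and 1 higher (background 17.1%). The groups were then apart in 21 genes that were lower (background 8.94%) and in 1, Homer3, that was higher (background 14.2%). Of the long coding isoforms, 12 were lower and none higher at that p, against 4.45% and 6.03% of all isoforms. Without OGD-TIA 16 the median of the 40 was -0.19 (0.03 over all genes), 35 were below 0 and 13 were lower at that p (background 8.42%). No alternative called any of the 40 here, and with length weighting the lowest padj was that of Dlgap2 (0.0492, log2 fold change -0.62). The pan-neuronal markers had a median of -0.33 in this comparison, with all 16 below 0. Scaled to those markers, the median was 0.37 for all genes and -0.0028 for the 40, of which 20 were below 0.

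Shank1 had 59.3, 64.8, 73.2 and 66.9 FPKM in CONTROL-TIA and 45.7, 50.6, 49.6 and 36.4 FPKM in OGD-TIA, without overlap (-0.54 ± 0.12, padj 0.116). Psd had 609, 561, 617 and 563 FPKM and 537, 462, 512 and 334 FPKM in these groups, again apart (-0.37 ± 0.14, padj 0.218). In both genes OGD-TIA 16 was the lowest culture. Ddn had 219.8, 186, 172 and 230.4 FPKM in CONTROL-TIA and 131, 124, 199.7 and 45.1 FPKM in OGD-TIA. OGD-TIA 15 lay within the control range and OGD-TIA 16 near the OGD-VEH cultures (-0.87 ± 0.40, padj 0.276). The full-length Ddn-201 was less scattered, with 51.7, 53.1, 53.8 and 64.1 FPKM against 35.1, 36.4, 39.5 and 25.6 FPKM and no overlap. Dlgap3 had 115, 50.6, 84.99 and 96.1 FPKM and 40.02, 71.9, 41.6 and 20.3 FPKM (-1.07 ± 0.39, padj 0.203), and its fragment Dlgap3-204 varied from 10.1 to 72.9 FPKM within CONTROL-TIA alone. Iqsec1 had 85.4, 45.1, 43.4 and 117 FPKM and 68.8, 55.9, 48.1 and 48.8 FPKM, which overlapped (-0.28 ± 0.32). Dlg2 had 176, 178, 168 and 211 FPKM and 172, 146, 163 and 107 FPKM, with OGD-TIA 16 below the rest (-0.34 ± 0.15). Nrgn, with the lowest padj of the 40 together with Shank1, had 439.7, 426, 338 and 530.1 FPKM against 311, 287, 258 and 289 FPKM (-0.58 ± 0.13, padj 0.116). All 4 OGD-TIA cultures of Nrgn were below the controls, and OGD-TIA 16 lay within the range of the other 3. Homer3 had 18.6, 16.1, 30.7 and 13.9 FPKM and 24.2, 33.98, 34.5 and 41.2 FPKM (0.79 ± 0.26, padj 0.18), and Nptx2 had 7.89, 5.27, 5.58 and 4.68 FPKM and 6.89, 5.15, 4.60 and 3.79 FPKM (-0.20 ± 0.22). The groups overlapped in both genes.

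**Figure D5:**
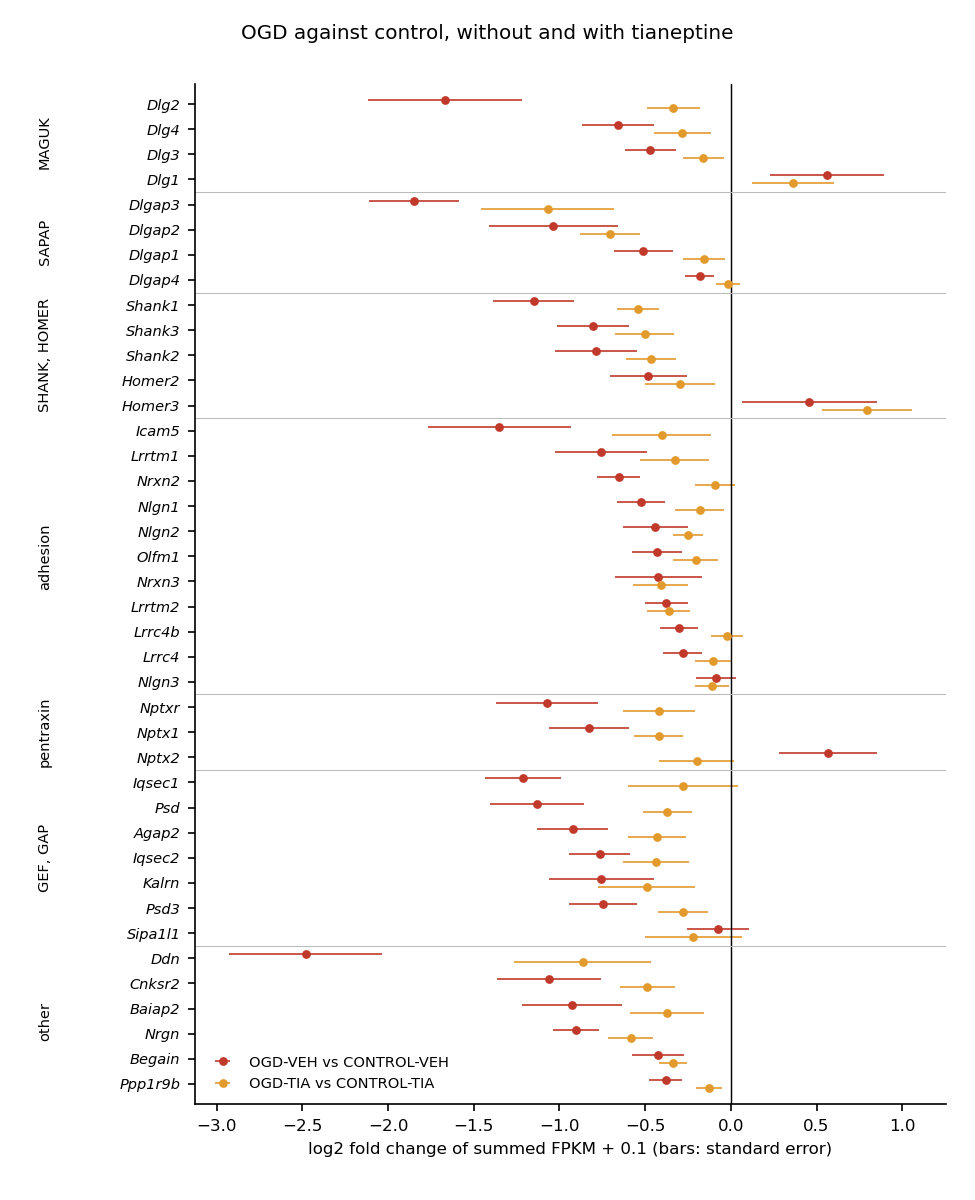
Log2 fold change of summed FPKM + 0.1 with its standard error for the 40 genes, in OGD-VEH vs CONTROL-VEH (red) and OGD-TIA vs CONTROL-TIA (orange), 4 cultures per group. In 35 of the 37 genes below 0 in both comparisons the orange point is nearer to 0, and Nptx2 is the gene with points on opposite sides.

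Side by side, 37 genes were below 0 in both comparisons, and in 35 of them the log2 fold change was nearer to 0 with TIA (all but Nlgn3 and Sipa1l1). The median of the difference was 0.33 on the log2 scale. The difference itself was tested as an interaction over the 16 cultures, that is, the OGD effect under TIA less the one under vehicle. limma called none of the 40 genes and 0% of all 16313 genes, and 7 of the 40 (Dlg2, Shank1, Nrxn2, Iqsec1, Psd, Ppp1r9b and Ddn) had a positive interaction at an unadjusted p under 0.05, against 2.66% of all genes. The largest was that of Ddn (1.62 ± 0.64, padj 0.722), followed by Dlg2 (1.33 ± 0.51, padj 0.722). Nrxn2 had the smallest interaction p of the 40, at 0.56 ± 0.18 (padj 0.722). It had 490.4, 475, 504 and 511 FPKM in CONTROL-TIA and 558, 485, 466 and 367 FPKM in OGD-TIA, with OGD-TIA 13 above and OGD-TIA 16 well below the controls. The 7 became 20 without OGD-VEH 9 and 16 without OGD-TIA 16, while the share of all genes rose to 8.2% and 7.03%, and they became 3 to 6 without any other culture. With array quality weights, which let cultures far from the rest count for less, Ddn and Dlg2 were called, as were 0.619% of all genes. With length weighting 3 genes, Dlg2, Kalrn and Nrxn2, had a positive interaction at that p (background 2.05%). Ddn and Iqsec1 were then at 0.60 ± 0.32 and 0.20 ± 0.12, so that the size for Ddn depended on how its isoforms were added. The median interaction of the 16 pan-neuronal markers was 0.43, with 15 above 0, and that of all genes -0.04.

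The direct comparison of OGD-TIA with OGD-VEH, which shares its cultures with those above, gave 34 of 40 genes above 0 and a median of 0.34 against -0.05 over all 16351 genes. limma called none of the 40 and 0% of all genes. At an unadjusted p under 0.05, 6 genes were higher with TIA (Dlg2, Dlgap4, Shank1, Nrxn2, Iqsec1 and Ddn; background 2.87%) and none lower. The pan-neuronal markers were also higher with TIA, all 16 above 0 with a median of 0.48, and the 10 astrocyte markers all below 0 with a median of -0.41. Their part in the values of the 40 genes was not tested. Without OGD-VEH 9 or OGD-TIA 16 these were 22 and 14, against 9.01% and 7.31% of all genes, and without any other culture 2 to 5. With length weighting 36 genes were above 0 with a median of 0.30, and 6 were higher at that p (background 2.29%) but none had its groups apart. Of the long coding isoforms 35 were above 0 with a median of 0.35, and none was higher or lower at that p. Iqsec1, at 0.91 ± 0.19 (padj 0.551), was the gene in which all OGD-TIA cultures lay above all OGD-VEH cultures (background 1.3%). That separation came with Iqsec1-205, whose FPKM was 14.97, 18.1, 7.81 and 12.1 in OGD-TIA. This isoform was also called when each isoform was tested by itself. The long coding isoform Iqsec1-201 had 10.5, 11.1, 12.3 and 9.30 FPKM in OGD-TIA and overlapped with OGD-VEH. Ddn was at 1.68 ± 0.58 (padj 0.551) and Dlg2 at 1.19 ± 0.47 (padj 0.551). With length weighting these genes were at 0.69 and 0.81, and their long coding isoforms Ddn-201 and Dlg2-204 at 0.44 and 0.72. The long coding isoform of Dlgap4 was at -0.16, opposite to its sum.

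The last comparison asks what TIA did without OGD, and its differences were small. In CONTROL-TIA vs CONTROL-VEH the median of the 40 was -0.02, with 24 genes below and 16 above 0, and over all 16170 genes it was -0.01. limma called none of the 40 and 0% of all genes, and at an unadjusted p under 0.05 only Homer3 was lower (-0.71 ± 0.27, padj 0.999; background 2.03%). Homer3 had 0 to 0.008 FPKM of its isoform Homer3-204 in 3 of the 4 CONTROL-TIA cultures and 16.2 FPKM in CONTROL-TIA 7, and the isoform Homer3-201 was at 8.14, 7.57, 5.00 and 6.87 FPKM there. In none of the 40 genes were the groups apart. The log2 fold changes of Ddn, Dlgap3, Shank1 and Psd were 0.07, -0.25, 0.05 and -0.12.

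Other genes of the same compartments were listed for comparison, again with earlier results of these data known. Of 43 other postsynaptic scaffold and signaling genes tested in OGD-VEH vs CONTROL-VEH, 32 were below 0 with a median of -0.33, 4 were lower at a padj of at most 0.05 and 1, Actn2 (an actin-binding alpha-actinin), was a DEG at -1.13 (padj 0.047). Of 59 other synaptic adhesion genes tested, 51 were below 0 with a median of -0.50. At a padj of at most 0.05, 14 of these were lower and 1 higher. The 4 DEGs among them fell: Clstn3, a calsyntenin (-2.02, padj 0.0394), Ptprd, a receptor phosphatase of the axon (-1.23, padj 0.0437), Cbln1, the neurexin ligand cerebellin 1 (-1.15, padj 0.0373), and Lgi1, a secreted protein altered in inherited epilepsy (-1.13, padj 0.0357). Relative to all genes tested (1.68% called lower), 1 of 43 and 4 of 59 were called lower. In OGD-TIA vs CONTROL-TIA the medians of these lists were -0.21 and -0.22, with no DEG.

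Promoters are shown for 3 genes with different values in OGD-VEH and 1 RefSeq start each, namely Dlgap3, Icam5 and Homer3. RefSeq (GRCm38.p6) start sites matched 29 of the 40 genes, with 52 promoters of 300 bases, from 250 before to 50 after the start. A GC box (GGGCGG on either strand) occurred in 28 of the 52, or 53.8%, against 35.7% of all 32851 promoters. A CCAAT box occurred in 28.8% against 37.4%, and a TATA box (TATAAA) in 9.62% against 13.6%. The cAMP response element TGACGTCA was in none of the 52 and in 1.79% of all promoters, and the AP-1 motif TGANTCA was in 1 (Nrxn3) and in 7.81%. The E-box CACGTG was in 9.62% of the 52 and 7.15% of all. The median GC content was 60.2% for the 52 and 52.7% for all promoters. A match says only that these letters occur. The 250 bases before each start follow, with matches to these motifs in capitals.
Dlgap3 (chr4:127172630-127172879, plus strand): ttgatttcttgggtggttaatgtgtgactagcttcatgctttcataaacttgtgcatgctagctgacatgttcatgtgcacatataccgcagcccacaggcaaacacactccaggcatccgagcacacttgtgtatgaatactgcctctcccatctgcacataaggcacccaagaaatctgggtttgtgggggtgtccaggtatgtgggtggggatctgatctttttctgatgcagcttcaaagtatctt
Icam5 (chr9:21031788-21032037, plus strand): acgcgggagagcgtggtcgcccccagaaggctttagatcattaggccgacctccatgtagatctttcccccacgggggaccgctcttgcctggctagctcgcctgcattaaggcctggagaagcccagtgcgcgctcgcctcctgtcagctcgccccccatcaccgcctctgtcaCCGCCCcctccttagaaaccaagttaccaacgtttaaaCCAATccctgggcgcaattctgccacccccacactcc
Homer3 (chr8:70282749-70282998, plus strand): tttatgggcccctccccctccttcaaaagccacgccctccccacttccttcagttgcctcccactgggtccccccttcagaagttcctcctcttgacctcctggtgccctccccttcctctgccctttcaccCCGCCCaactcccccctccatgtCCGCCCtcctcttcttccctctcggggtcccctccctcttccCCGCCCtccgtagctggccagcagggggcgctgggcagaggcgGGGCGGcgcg
In these windows Dlgap3 held none of the 6 motifs, Icam5 held 1 GC box and 1 CCAAT box, and Homer3 held 4 GC boxes. The RefSeq and GENCODE starts differ for all 3 genes. The Icam5 window ends shortly before the GENCODE start of that gene (chr9:21032073). The Dlgap3 window lies inside the GENCODE gene (chr4:127169204-127237022), so the bases before the GENCODE start were not examined. The Homer3 window spans the GENCODE start of that gene (chr8:70282827).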

How the data were processed

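RNA-seq data of 16 cultures of mouse cortical neurons were used. The authors checked 50-base single-end reads with FastQC, aligned them with STAR, quantified isoforms of Ensembl 92 (GRCm38) with eXpress and deposited FPKM per isoform in 1 table, whose name gives TMM scaling between samples. Versions are not given in the sources used here. The table holds no counts, so depth was estimated from the FPKM of single reads.

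FPKM was summed over the isoforms of a gene symbol (74 lines without an identifier were left out) and tested as log2(FPKM + 0.1), which understates changes of low genes, with limma 3.58.1 in R 4.3.3 on the 8 cultures of a comparison (16 for the interaction). Genes needed a mean of at least 0.5 FPKM. P-values were adjusted by Benjamini-Hochberg over all genes tested, and padj stands for that value. Differences are the group named first minus the group named second, and errors after ± are standard errors. A count test such as DESeq2 does not apply to FPKM. The 40 genes and the other lists were chosen with earlier results of these data known. All 40 genes are named, and culture values are given for 16 of them by rule: the largest and smallest change in each role, every DEG, and the 2 with the smallest interaction p. Dlg1, Dlg4 and Nrgn were added after their values were seen. Other genes are named only where called. Alternatives were other pseudocounts, filters, scalings, weights, isoform weighting, single isoforms and leaving out each culture. The limma step was tested on simulated data, drawn as independent values with the spread of the control cultures. That test does not cover the wider spread of the OGD cultures.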

Additional observations from a re-analysis of the deposited data

Results flagged for a closer look

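Within 92 groups of 4 cultures examined (the described genes and the marker sums), 7 held 1 culture that lay far from the other 3 relative to the range of its group. Chance alone flags about 1 in 20 such groups. Iqsec1 was at 21.04 FPKM in OGD-VEH 10 and at 31.4 to 33.5 FPKM in the other OGD-VEH cultures. OGD-TIA 16 stood apart in 4 marker sums. Its pan-neuronal markers summed to 3948 FPKM against 6442 to 6582 FPKM in OGD-TIA 13 to 15, and its excitatory markers to 189.9 FPKM against 316 to 338 FPKM. Its astrocyte markers summed to 2076 FPKM against 825 to 997 FPKM and its endothelial or mural markers to 5.97 FPKM against 1.88 to 2.34 FPKM. In CONTROL-VEH 4 the inhibitory markers summed to 445 FPKM, with 208 to 248 FPKM in CONTROL-VEH 1 to 3. In CONTROL-TIA 7 the endothelial or mural markers summed to 1.74 FPKM, with 2.28 to 2.34 FPKM in the other CONTROL-TIA cultures. Cultures 4, 8, 12 and 16 had the highest astrocyte sum of their groups (1689.5, 934, 2734 and 2076 FPKM) and the highest inhibitory sum (445, 316, 403 and 289 FPKM), a pattern noticed after the values were seen, and the labels give no batch for these cultures.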

How the results depend on the processing

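In OGD-VEH vs CONTROL-VEH, the 5 DEGs among the 40 genes became 0 without a filter on low values, 8 with array quality weights, 10 with all 16 cultures in one fit, 3 when scaled to pan-neuronal markers (chosen after seeing the data) and 0 with each isoform tested by itself. Leaving out 1 culture gave 0 to 11. Among all genes, the 668 DEGs became 6, 1929, 1412, 4485 and 75 under the same settings in that order, 1072 with length weighting and 1 to 2186 without 1 culture. For OGD-TIA vs OGD-VEH, array quality weights called 2 of the 40 (408 of all genes) and isoforms by themselves 1 (an Iqsec1 isoform). The interaction called 2 of the 40 with array quality weights (101 of all genes). No alternative called any of the 40 in OGD-TIA vs CONTROL-TIA or CONTROL-TIA vs CONTROL-VEH, where up to 80 and 5 of all genes were called. Scaling to pan-neuronal markers turned the log2 fold change to 0.28 for Dlg3, 0.57 for Dlgap4, 0.66 for Nlgn3, 0.095 for Nrxn2, 0.37 for Ppp1r9b and 0.67 for Sipa1l1. Sipa1l1 ran from -0.23 to 0.074 without 1 culture. The causes were not tested, except that no filter and single isoforms raise the number of tests. No paired analysis was run, because the cultures are numbered 1 to 16 with no number shared between groups. The fits thus treat the cultures as independent, and the pattern by culture order given above did not enter them. Depth is estimated, and an isoform's FPKM depends on how shared reads were divided.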
